A study of Homo sapiens with 12 samples.

Results

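Tumours treated with an EZH2 inhibitor were compared directly with tumours treated with a p38 inhibitor, gene by gene, without the vehicle tumours as the reference. The comparison held 6 of the 12 libraries of the series, 3 from each treatment, chosen by the treatment that the labels give. All tumours were xenografts of the established human cell line MDA-MB-231, a model of triple-negative breast cancer, in the mammary fat pad of mice, so all libraries sample 1 cell line. In the p38i group the agent was SB202190, which inhibits p38 MAP kinases, given at 1 mg/kg/day. In the EZH2i group it was EPZ-6438, known as tazemetostat, given at 10 mg/kg/day, and the labels also spell its code EPZ-6428. Both groups were injected intraperitoneally on 5 days a week from a tumour volume of 100 mm3, and the duration is not given. Vehicle tumours and tumours given both agents, 3 of each, entered the same statistical fit and appear below only as levels beside those of the single agents. The strain, sex and age of the mice are not given in the labels, and each group had 10 mice, of which 3 tumours were sequenced.

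EZH2 is the catalytic subunit of polycomb repressive complex 2 (PRC2), which methylates histone H3 at lysine 27 and thereby represses genes. The p38 kinases, of which p38 alpha is encoded by MAPK14, are activated by stress and cytokines and phosphorylate kinases and transcription factors that control inflammatory transcripts. The series as a whole is about a link between phosphorylated EZH2 and p38 in breast cancer. The direct comparison asks which transcripts stand at different levels when one or the other protein is inhibited. Both agents act on proteins, so the transcripts of their targets do not check the labels.

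The 6 libraries held 2208771 to 4104159 counts. Of the p38i columns, 1 is named by a single sample and 1 by a pair of p38i samples. The last is named by no sample and is p38i by elimination. The latter pair is called col5 and col6. The 6 libraries mixed more by library than by treatment. A principal component analysis on the 500 genes of highest variance put 52.0% of it on the first component, which set col6 (score 30.9) and EZH2i 5-4 (15.5) apart from the other 4 libraries (-16.8 to -6.0). Spearman correlations across genes ran from 0.967 to 0.977 within p38i, from 0.948 to 0.961 within EZH2i and from 0.946 to 0.976 between them. No pair of libraries agreed within counting noise. All 16 markers of MDA-MB-231 cells had counts, and they took 1.38% to 1.83% of the counts of each library. Col6 also carried skeletal muscle transcripts, with 15 of 18 markers highest there. These took 0.232% of its counts, against 0.0148% to 0.0221% in the other 5 libraries. Markers of other host cells took at most 0.0987% of the counts (fibroblast). At 0 in all 6 were 7 of 10 neutrophil markers, S100A8, S100A9, MPO and ELANE among them, 4 of 12 lymphocyte markers and 2 of 14 macrophage markers. The hosts were mice and the build was human, so a marker at 0 does not show that such host cells were absent. The leukocyte gene PTPRC had 33 to 106 reads in each of the 6 libraries and the macrophage gene CD68 34 to 56. In bulk tumours, fewer cells of a type and less RNA per cell cannot be told apart.

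No gene passed the test between the EZH2 inhibitor and the p38 inhibitor. Of 12514 genes tested, 0 (0.00%) had an edgeR adjusted p under 0.05, and 426 (3.40%) had an unadjusted p under 0.05. By the sign of the difference, EZH2i was higher for 6643 genes (53.1%). Among the 426, 192 (1.53% of the genes tested) were higher with EZH2i and 234 (1.87%) were lower. The same test called 1 gene, SERPINA3, when done with DESeq2 (0.00799% of the genes tested) and when genes of low count were kept (0.00473%). The 3 EZH2i and 3 p38i libraries did not overlap for 953 genes (7.62%), with EZH2i higher for 451 (3.60%) and lower for 502 (4.01%). The 3 p38i libraries against the 3 vehicle libraries gave 221 calls in this fit (1.77%), and EZH2i against the same vehicle libraries gave 27 (0.216%). These comparisons share their vehicle libraries.

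Most differences were estimated to within a 2-fold change. The median log2 difference over all genes, EZH2i minus p38i, was 0.0192. The median absolute difference was 0.176, and 205 genes exceeded 1. The 95% interval of the difference lay within -1 and 1, that is within a 2-fold change either way, for 8717 genes (69.7%). Of the 7054 genes with a mean of at least 20 CPM (counts scaled to a common library total), it lay within these bounds for 6565 (93.1%). Among these better measured genes, 8 had an absolute log2 difference over 1. The median half-width of the interval was 0.426 for the better measured genes and 0.544 for all genes.

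**Figure D1:**
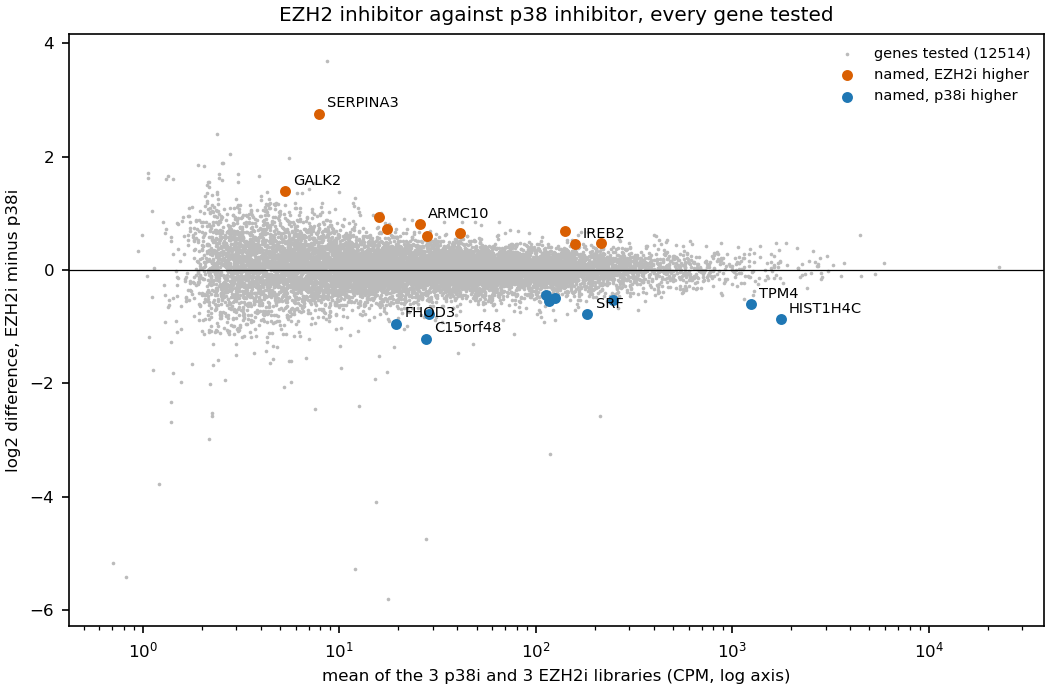
Each point is 1 of the 12514 genes tested: the horizontal log axis is its mean level in the 6 libraries in CPM, and the vertical axis is the log2 difference, EZH2i minus p38i. Orange and blue points are the 20 genes named by rule. SERPINA3 lies at 2.76, and the points at the bottom include skeletal muscle genes that rest on the p38i library col6.

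SERPINA3 had the smallest p of all genes. It encodes alpha-1-antichymotrypsin, a secreted inhibitor of serine proteases and an acute-phase protein. It measured 2.73, 1.66 and 1.71 CPM in the p38i tumours and 22.8, 10.7 and 7.86 CPM in the EZH2i tumours. Every EZH2i tumour was above every p38i tumour. The log2 difference was 2.76 (SE 0.438, 95% interval 1.83 to 3.69), a fitted fold of 6.76. The edgeR adjusted p was 0.177, and the next gene in the ranking had 0.998. The p38i values rest on 8, 6 and 7 reads and the EZH2i values on 56, 43 and 18 reads. With DESeq2 the adjusted p was 0.000359, with genes of low count kept it was 0.000862, and with limma-voom it was 0.997. In edgeR fits it was 0.9985 with only the 6 single-agent libraries and 0.9997 without p38i col6. Over all alternatives the log2 difference stayed between 2.22 and 3.01.

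The level with EZH2i was near that of vehicle tumours. Vehicle tumours measured 19.1, 11.4 and 20.6 CPM of SERPINA3, and tumours given both agents 11.7, 13.6 and 9.73 CPM. Only the 3 p38i tumours were below 3 CPM. Against vehicle, SERPINA3 fell by 3.07 on the log2 scale with p38i (edgeR adjusted p = 0.0142) and stood at -0.32 with EZH2i (adjusted p = 0.72).

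SERPINA5, the protein C inhibitor gene, was also lower in the p38i than in the EZH2i tumours, at similarly low levels. It measured 1.02, 3.04 and 2.45 CPM with p38i and 17.1, 5.97 and 3.93 CPM with EZH2i, with no overlap. Its log2 difference was 1.98 (SE 0.652, 95% interval 0.57 to 3.38, edgeR unadjusted p = 0.00927, adjusted p = 0.998). Without EZH2i 5-3 it was 1.19. Its p38i values rest on 3, 11 and 10 reads. On the coagulation and fibrinolysis list 19 genes were tested, and 3 had an unadjusted p under 0.05. These 3 were higher with EZH2i, against 1.53% of all genes in this direction: SERPINA3, SERPINA5 and SERPINE2 (0.66), which encodes protease nexin-1. SERPINA3 is on the list though it is not a coagulation or fibrinolysis factor. It is itself the gene of smallest p, so the count is a description. The list's median was 0.12. The tissue factor gene F3 was at -0.37.

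The 10 genes named with EZH2i higher, chosen by smallest p among genes without overlap, ranged from 0.45 to 2.76 on the log2 scale. Since the rule picked them by p and by overlap, their intervals and the gap between groups are descriptions. ARMC10, which encodes a mitochondrial outer membrane protein, measured 21.5, 16.8 and 17.9 CPM with p38i and 35, 31.8 and 31.4 with EZH2i (log2 0.81, SE 0.205). CDK10, a cyclin-dependent kinase gene, measured 31, 36.7 and 28.9 CPM with p38i and 50, 58.7 and 41.9 with EZH2i (log2 0.65, SE 0.193). IREB2 encodes iron regulatory protein 2, which binds iron-responsive elements in ferritin and transferrin receptor transcripts. It measured 128, 142 and 131 CPM with p38i and 170, 202 and 175 with EZH2i (log2 0.45, SE 0.138). PARP8 measured between 33.2 and 33.8 CPM in the EZH2i tumours and at most 24 CPM in the p38i tumours.

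The other named genes with EZH2i higher included GALK2, a sugar kinase gene, at 2.45 to 3.41 CPM with p38i and 4.47 to 11.3 with EZH2i. IER5L, related to the immediate early gene IER5, measured 9.54 to 11.6 CPM with p38i and 12.9 to 27.1 with EZH2i. AES, a Groucho-family corepressor gene, measured 163 to 210 CPM with p38i and 223 to 269 with EZH2i, and DPP7, a dipeptidyl peptidase gene, 11.3 to 14.9 and 20.1 to 24.4 CPM. ANXA2P3 is a pseudogene of ANXA2, so its reads may belong to the parent, and its log2 difference of 0.69 is uncertain, while ANXA2 itself was at -0.01. The plot of named genes by library shows all 20.

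**Figure D2:**
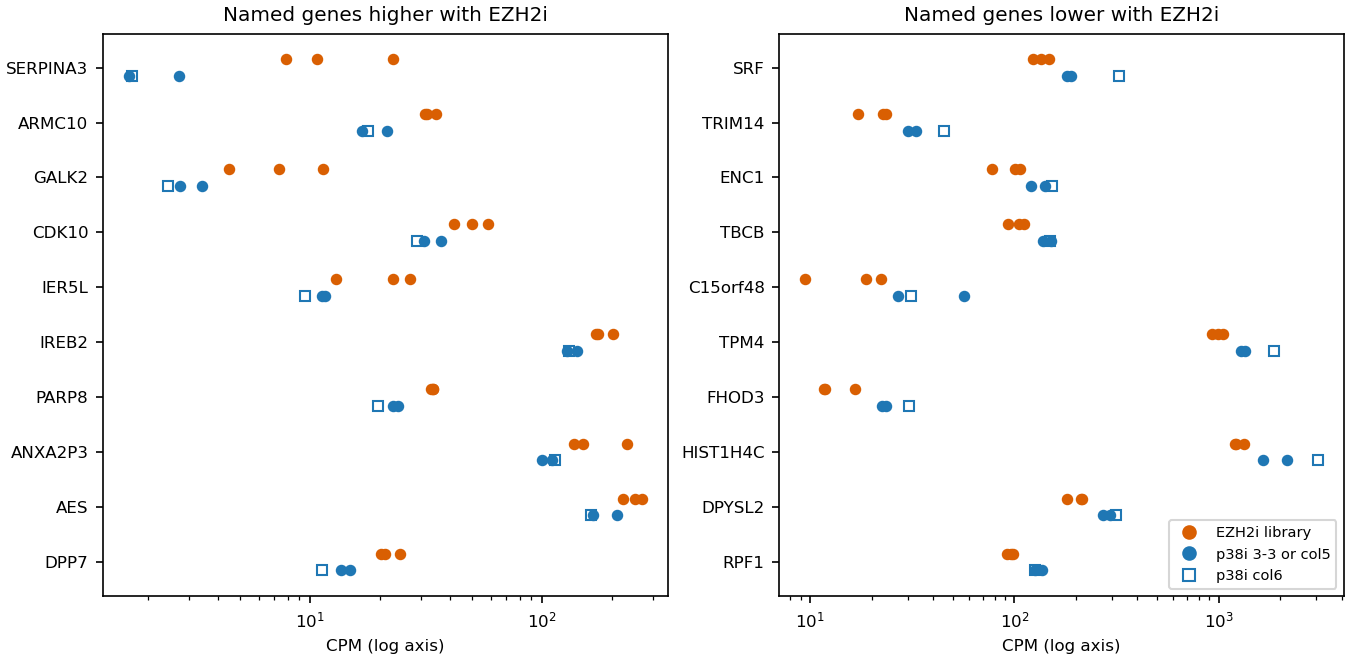
Each point is 1 library and each row 1 of the 20 genes named by rule. The horizontal log axis is CPM, EZH2i libraries are orange, p38i libraries are blue, and the open square is p38i col6. The groups do not overlap because the rule asked for it, and col6 is the highest of the 6 libraries for 7 of the 10 genes lower with EZH2i.

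The 10 genes named with EZH2i lower ranged from -1.21 to -0.44. SRF encodes serum response factor, a transcription factor that binds CArG boxes and drives actin and immediate early genes. It measured 180, 189 and 325 CPM with p38i and 147, 123 and 135 CPM with EZH2i. The log2 difference was -0.78 (SE 0.215, 95% interval -1.24 to -0.32, edgeR unadjusted p = 0.00247, adjusted p = 0.998). TPM4, a tropomyosin gene, measured 1345, 1281 and 1869.7 CPM with p38i and 1046, 992 and 922 CPM with EZH2i (log2 -0.60). FHOD3, a formin gene that acts on actin filaments, measured 23.5, 22.6 and 30.3 CPM with p38i and 11.8, 11.7 and 16.6 with EZH2i (log2 -0.95).

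In all 3 of these genes the highest value was that of p38i col6, the library with the skeletal muscle transcripts. Without col6 the log2 differences were -0.45 for SRF, -0.41 for TPM4 and -0.79 for FHOD3, with edgeR unadjusted p of 0.0264, 0.0384 and 0.0265 and an adjusted p of 0.9997 each. Over all genes, the number at an unadjusted p under 0.05 was 177 without col6, against 426 with it. The part of the muscle transcripts in these differences was not tested.

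The promoters of SERPINA3 and SRF are shown because these genes had the smallest p in each direction among the named genes, and that of TPM4 as a gene of the actin cytoskeleton. They were chosen after their values were seen. Each window is the 250 bases before a RefSeq start (GRCh38.p14, plus strand), and capitals mark a match to the CArG box, the only motif found.

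SERPINA3, chr14:94612141-94612390: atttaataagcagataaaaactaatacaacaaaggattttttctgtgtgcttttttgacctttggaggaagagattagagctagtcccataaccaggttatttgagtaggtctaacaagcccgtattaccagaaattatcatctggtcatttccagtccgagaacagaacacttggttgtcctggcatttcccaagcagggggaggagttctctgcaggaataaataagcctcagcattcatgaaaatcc
SRF, chr6:43171019-43171268: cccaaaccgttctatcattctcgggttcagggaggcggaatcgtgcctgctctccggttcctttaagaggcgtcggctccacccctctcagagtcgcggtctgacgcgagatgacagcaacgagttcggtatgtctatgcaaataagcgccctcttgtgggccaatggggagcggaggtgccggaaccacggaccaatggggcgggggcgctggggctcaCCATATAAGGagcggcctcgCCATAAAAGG
TPM4, chr19:16067288-16067537: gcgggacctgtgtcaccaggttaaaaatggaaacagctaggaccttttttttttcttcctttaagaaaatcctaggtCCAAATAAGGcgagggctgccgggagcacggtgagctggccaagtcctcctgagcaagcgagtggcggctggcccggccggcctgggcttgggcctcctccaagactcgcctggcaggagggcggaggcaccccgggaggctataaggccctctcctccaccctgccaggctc

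Both strands were searched for the CArG box and for 2 more motifs, AP-1 (TGANTCA) and STAT (TTCNNNGAA). The SRF window held 2 CArG matches, at bases 30 to 21 and 10 to 1 before the start, and the TPM4 window held 1, at bases 173 to 164. A second SRF window and 2 further TPM4 windows at other starts held none. The SERPINA3 window held none of the 3 motifs, and no window of SRF or TPM4 held AP-1 or STAT. Of 35116 windows of this length, 407 (1.16%) held a CArG match, 2308 (6.57%) an AP-1 match and 2306 (6.57%) a STAT match. A match is a run of letters and not a measured site.

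The remaining genes named with EZH2i lower were of several kinds. C15orf48, a gene induced by inflammatory signals, measured 56.9, 27 and 31.1 CPM with p38i and 18.7, 9.45 and 22.3 with EZH2i (log2 -1.21, SE 0.357). HIST1H4C, a histone H4 gene, measured 1639, 2155 and 3059 CPM with p38i and 1217, 1206 and 1327 with EZH2i (log2 -0.87, and -0.60 without col6). Histone H4 genes are near-identical in their coding sequence, so the split of reads among copies is uncertain. TRIM14, an adaptor gene of antiviral signalling, was at -0.78, and ENC1, a kelch-repeat gene, at -0.55. The tubulin-folding cofactor gene TBCB was at -0.50, DPYSL2, which encodes a microtubule-binding protein, at -0.54, and RPF1, a ribosome biogenesis gene, at -0.44. TBCB, DPYSL2 and RPF1 had narrow groups, with RPF1 at 126 to 137 CPM in p38i tumours and at 91.9 to 98.7 in EZH2i tumours.

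Of the 20 genes named by rule, 5 passed the edgeR threshold for p38i against vehicle, where 1.77% of all genes tested passed. For EZH2i against vehicle 0 of the 20 passed, where 0.216% of all genes did. The 20 were chosen on these same p38i and EZH2i libraries, so the counts are descriptions. The 5 were SERPINA3, IER5L (-1.55), AES (-0.62), C15orf48 (1.59) and HIST1H4C (1.22). For these 5 genes the EZH2i differences from vehicle were -0.32, -0.62, -0.15, 0.38 and 0.35. The 2 sets of differences share the vehicle libraries, and the direct difference is their gap.

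The transcripts of the 2 drug targets stood at similar levels. EZH2 measured 127, 172 and 213 CPM with p38i and 144, 159 and 157 CPM with EZH2i, and the EZH2i values lay inside the p38i range. The log2 difference was -0.16 (95% interval -0.58 to 0.27). MAPK14 measured 121, 128 and 140 CPM with p38i and 93.1, 146 and 108 CPM with EZH2i, a difference of -0.16 (-0.53 to 0.22). Both intervals exclude a 2-fold difference either way.

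PRC2 genes and genes known from other systems as EZH2-repressed had list medians near that of all genes. All 16 genes tested on the PRC2 list had an unadjusted p over 0.05, with a median of -0.07 against 0.02 over all genes. The list also holds the histone demethylase genes KDM6A (-0.08) and KDM6B (0.07), which do not encode PRC2 subunits. EED was at -0.09, SUZ12 at -0.06 and JARID2 at 0.01. Among PRC1 genes 0 of 17 had an unadjusted p under 0.05 (median 0.10). Of 18 genes reported as EZH2-repressed, 9 were higher and 9 lower by sign (median 0.01). An unadjusted p under 0.05 was found for 1 of the 18, against 3.40% of all genes. This was NKX2-5, a cardiac homeobox gene, at 1.02, 1.1 and 0.979 CPM with p38i and at 4.88, 2.98 and 5.67 CPM with EZH2i. Its log2 difference was 2.05 (95% interval 0.58 to 3.53, edgeR unadjusted p = 0.00953, adjusted p = 0.998). The p38i values rest on 3, 4 and 4 reads and the EZH2i values on 12, 12 and 13 reads. Vehicle tumours held 0.179 ± 0.158 CPM (SD, n = 3), so the gene was near the limit of detection there. The other members ranged from the E-cadherin gene CDH1 at -2.46 and SFRP1 at -0.77 to TIMP3 at 0.39 and IGFBP3 at 0.62. The CDH1 value is uncertain, with an SE of 1.81, overlapping groups and an edgeR unadjusted p of 0.205. Its p38i mean was 12.6 CPM with an SD of 18.1. GATA6 was at -0.05, DKK1 at -0.01, FBXO32 at 0.03 and CDKN1C at -0.18.

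Genes of the p38 pathway also had small differences. Of 28 kinases, activators and downstream factors (median 0.02), 1 had an unadjusted p under 0.05, against 3.40% of all genes. This was ATF2, a transcription factor phosphorylated by p38, at 40.6, 40.8 and 40.9 CPM with p38i and at 50, 58.7 and 51.9 with EZH2i (log2 0.40). MAPKAPK2, the main kinase below p38 alpha, was at 0.02, and MAP2K3 and MAP2K6, which activate p38, were at -0.28 and 0.29. Of 12 p38-responsive cytokine and AU-rich-element transcripts, 0 had an unadjusted p under 0.05, and 9 were lower with EZH2i by sign (median -0.16). Among all 12514 genes tested, 5871 were lower by sign. IL11 was at -0.58, where col6 held 52.6 CPM against 12.7 to 23.6 in the other 5 libraries, and at 0.23 without col6. CXCL8 was at -0.24 and PTGS2 at -0.09.

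A set of 17 genes called against vehicle with at least 1 of the agents was then compared directly. The 17 were taken from earlier results of these data, and 0 of them passed between the agents. They are only part of the genes called against vehicle in this fit, which were 221 with p38i and 27 with EZH2i. Of the 17, 5 had an unadjusted p under 0.05, against 3.40% of all genes, and 4 had no overlap, against 7.62% of all genes. For 8 of the 17 the 95% interval lay within -1 and 1. These genes were chosen on the same p38i and EZH2i libraries, so their shares say nothing beyond the values.

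Several stood at nearly the same level in both. ITGA10, the integrin alpha 10 gene, measured 79.4, 69.8 and 70 CPM with p38i and 83.3, 68.9 and 102 with EZH2i, while vehicle tumours held 267 ± 42.6 CPM (SD, n = 3). The direct log2 difference was 0.21 (95% interval -0.19 to 0.61). CXCR4, the receptor of the chemokine CXCL12, measured 209, 182 and 190 CPM with p38i and 181, 236 and 188 with EZH2i (0.06, -0.47 to 0.60), against 64.5 ± 4.35 in vehicle tumours. ADTRP, a regulator of tissue factor pathway inhibitor, was at -0.02 (-0.64 to 0.60), SMAD6 at 0.06 (-0.47 to 0.59), GATA6 at -0.05 (-0.73 to 0.63) and METTL7A at -0.14 (-0.71 to 0.44). For these 6 genes the interval excludes a 2-fold difference between the agents.

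Others had wider intervals. ID1 and ID3 encode inhibitors of DNA binding and are induced by BMP signals. ID1 measured 30.3, 30.6 and 43.3 CPM with p38i and 82.9, 22.4 and 86 with EZH2i, so EZH2i 5-4 was below every p38i tumour and the other EZH2i tumours were above. Its log2 difference was 0.85 (95% interval -0.18 to 1.87). ID3 was at 0.70 (-0.43 to 1.82), with EZH2i 5-4 again the lowest EZH2i tumour at 44 CPM. ATOH8 was at 1.02 (-0.74 to 2.78), TIE1 at -0.74 (-1.85 to 0.37) and TIMP3 at 0.39 (-0.22 to 1.00).

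FKBP5, LGALS9, CTH and HSPH1, with SERPINA5 above, were the genes of the 17 with an unadjusted p under 0.05. FKBP5, a co-chaperone of the glucocorticoid receptor, measured 20.5, 39.2 and 58.2 CPM with p38i and 17.1, 17.9 and 30.6 with EZH2i. The groups overlapped, and the log2 difference was -0.88 (95% interval -1.70 to -0.05), and -0.47 without col6 (edgeR unadjusted p = 0.232). LGALS9, the galectin 9 gene, measured 3.41, 3.31 and 3.67 CPM with p38i and 0.813, 0.249 and 1.75 with EZH2i (log2 -2.01, -3.47 to -0.55). These values rest on only 10, 12 and 15 reads with p38i and 2, 1 and 4 reads with EZH2i. CTH, an enzyme of cysteine synthesis, measured 18.7, 16 and 13.9 CPM with p38i and 7.32, 11.2 and 9.6 with EZH2i (log2 -0.77, -1.50 to -0.04). HSPH1, a heat shock chaperone, measured 305, 217 and 220 CPM with p38i and 322, 326 and 312 with EZH2i, with p38i 3-3 near the EZH2i tumours (log2 0.37, 0.04 to 0.70, and 0.30 without col6 with an edgeR unadjusted p of 0.117).

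**Figure D3:**
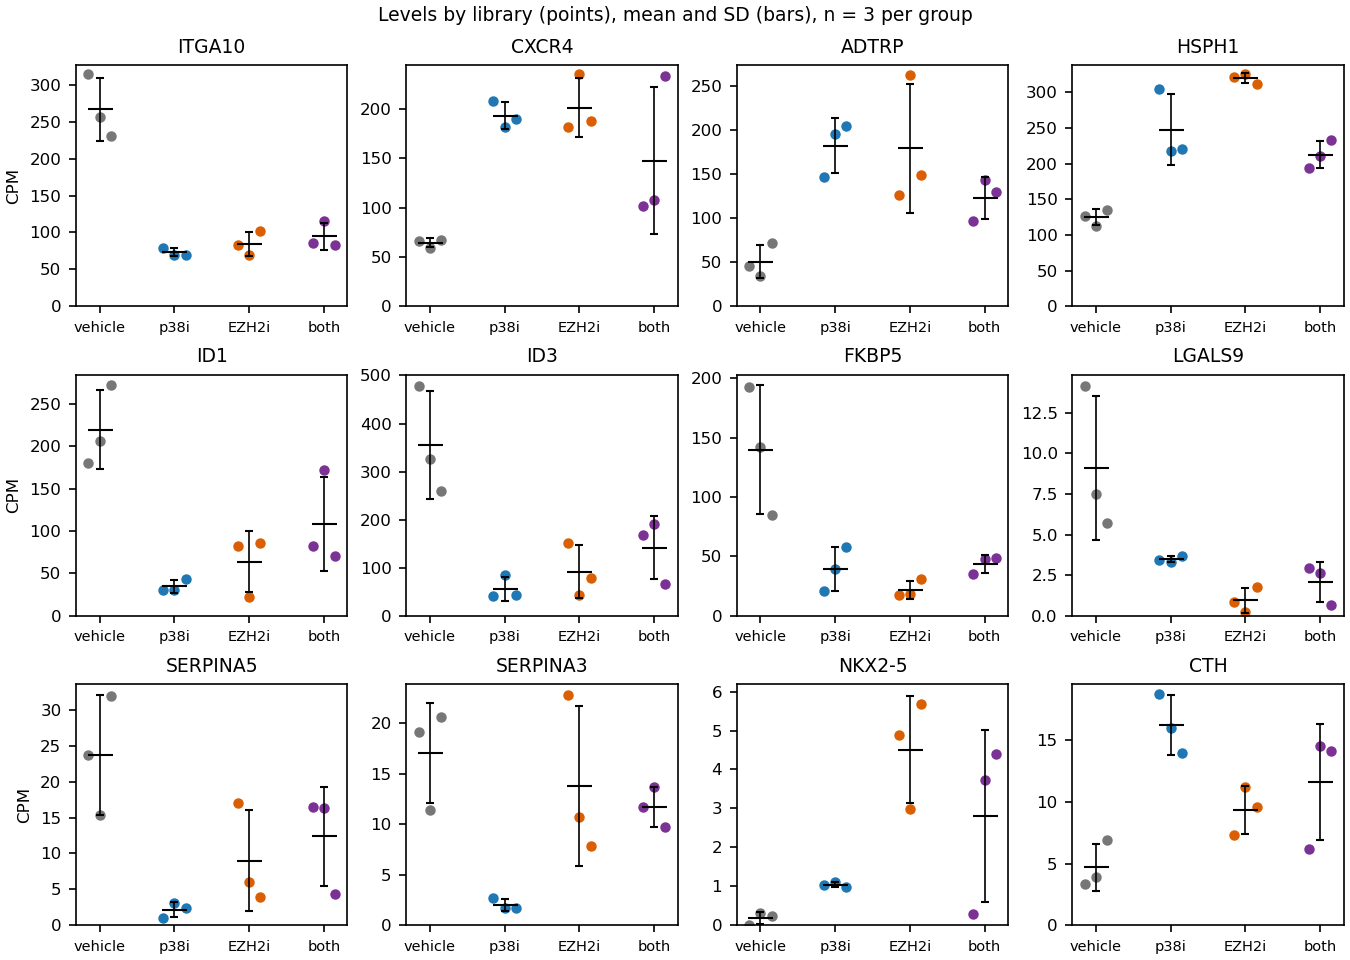
Each panel is 1 gene, with CPM on a linear axis from 0. Points are libraries, and bars are the mean and SD of the 3 libraries of vehicle, p38i, EZH2i and both agents. ITGA10, CXCR4 and ADTRP stand at like levels under both agents, while SERPINA3 and SERPINA5 have their lowest mean with p38i and the mean of LGALS9 is lowest with EZH2i.

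The BMP and ID genes were higher with EZH2i by sign for 13 of 16 (median 0.26), where 53.1% of all genes were higher. Of the 16, 2 had an unadjusted p under 0.05, both with EZH2i higher, against 1.53% of all genes in this direction. BMP2, a BMP ligand, measured 34.8, 27.3 and 32.3 CPM with p38i and 49.2, 36.8 and 51.9 with EZH2i (log2 0.54). ID2 measured 11.2, 14.1 and 9.79 CPM with p38i and 29.3, 14.2 and 16.2 with EZH2i (log2 0.75, and 0.37 without EZH2i 5-3). In the list's median log2 CPM, EZH2i 5-4 was the lowest library at 4.65, and EZH2i 5-3 and 6-1 were the highest at 5.18 and 5.30, with p38i between 4.88 and 5.03. The glucocorticoid-responsive list had 15 of 20 genes higher by sign (median 0.13). SGK1, a kinase gene induced by glucocorticoids, measured 48.7, 49.4 and 44.3 CPM with p38i and 60.6, 62.6 and 65.5 with EZH2i (log2 0.41), while FKBP5 of the same list was lower.

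G2/M genes were mostly lower with EZH2i by sign, and col6 was the highest library for the G2/M list. Of 28 G2/M genes 21 were lower (median -0.17), where 5871 of the 12514 genes tested were lower. The kinesin gene KIFC1 (-0.92), 1 of the 28, had an unadjusted p under 0.05, against 1.87% of all genes in this direction. KIFC1 measured 80.4, 98.8 and 252 CPM with p38i and 75.2, 59.7 and 95.6 with EZH2i, and its difference was -0.23 without col6. The median log2 CPM of the list was 7.03 in col6 and 5.84 to 6.60 in the other 5 libraries, with EZH2i 5-3 the lowest and EZH2i 5-4 the second highest. Of 27 DNA replication genes 16 were lower by sign (median -0.13), with the ribonucleotide reductase gene RRM1 at -0.34, and at -0.18 without col6. Of 12 replication-dependent histone genes 7 were lower (median -0.32). HIST1H4C, 1 of the 12, had an unadjusted p under 0.05, against the same 1.87% of all genes.

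Hypoxia and glycolysis genes leaned the other way. Of 25 genes 21 were higher with EZH2i by sign (median 0.19), where 53.1% of all genes were higher. Of the 25, 1 had an unadjusted p under 0.05, against 3.40% of all genes. This was the glycolytic enzyme gene ALDOA, at 334, 340 and 260 CPM with p38i and at 471, 457 and 327 with EZH2i (log2 0.43). The median log2 CPM of the list was 8.17 in EZH2i 5-3 and 7.93 in p38i 3-3, and it was lowest, at 6.86, in col6, so libraries of both groups stood at the top. Interferon-stimulated genes were lower by sign for 19 of 27 (median -0.14), where 5871 of the 12514 genes tested were lower. None of the 27 had an unadjusted p under 0.05, with IFI44 at -0.73 and OAS2 at -0.56.

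Chromatin modifier genes had 3 of 36 members at an unadjusted p under 0.05, all lower with EZH2i, against 1.87% of all genes in this direction. DNMT1, the maintenance DNA methyltransferase gene, measured 314, 329 and 597 CPM with p38i and 205, 264 and 288 with EZH2i (log2 -0.71). Its difference was -0.35 without col6 (edgeR unadjusted p = 0.1998). TET3, which oxidises methylcytosine, was at -0.67, and at -0.51 without col6 (edgeR unadjusted p = 0.0693). The TET3 groups overlapped, with p38i 3-3 at 16.36 CPM and EZH2i 6-1 at 17.02 CPM. Neither DNMT1 nor TET3 was thus under 0.05 without col6. The histone methyltransferase gene WHSC1 was at -0.46. The list's median was -0.01. On the list of matrix metalloproteinases and their inhibitors 2 of 17 had an unadjusted p under 0.05. Both were higher with EZH2i, against 1.53% of all genes in this direction. They were MMP2 (log2 1.53) and ADAM12 (log2 0.96), which is of the ADAM family and not a matrix metalloproteinase. In both the groups overlapped. MMP2 measured 1.02, 3.04 and 7.34 CPM with p38i and 5.69, 22.1 and 5.24 with EZH2i, with EZH2i 5-4 far above the rest. Its difference was 0.47 without EZH2i 5-4 and 2.44 without col6, and that of ADAM12 was 0.55 without col6 (edgeR unadjusted p = 0.111) and 0.57 without EZH2i 5-3.

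Over the 39 pathway lists, 704 different genes were tested, of which 29 (4.12%) had an unadjusted p under 0.05, against 3.40% of all genes, and 0 passed the adjusted threshold. Of 44 pathway and technical lists, 41 had a median between -0.2 and 0.2. The exceptions were MHC class II genes (0.89), BMP and ID genes and replication-dependent histones. Of 7 MHC class II genes 6 were higher by sign, where 53.1% of all genes were higher, and 0 had an unadjusted p under 0.05. HLA-DRB1 measured 6.82, 7.17 and 2.45 CPM with p38i and 32.5, 3.48 and 7.42 with EZH2i, so EZH2i 5-3 alone was high. Cytosolic ribosomal protein genes had a median of 0.11, respiratory chain genes -0.08 and housekeeping genes 0.01.

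**Figure D4:**
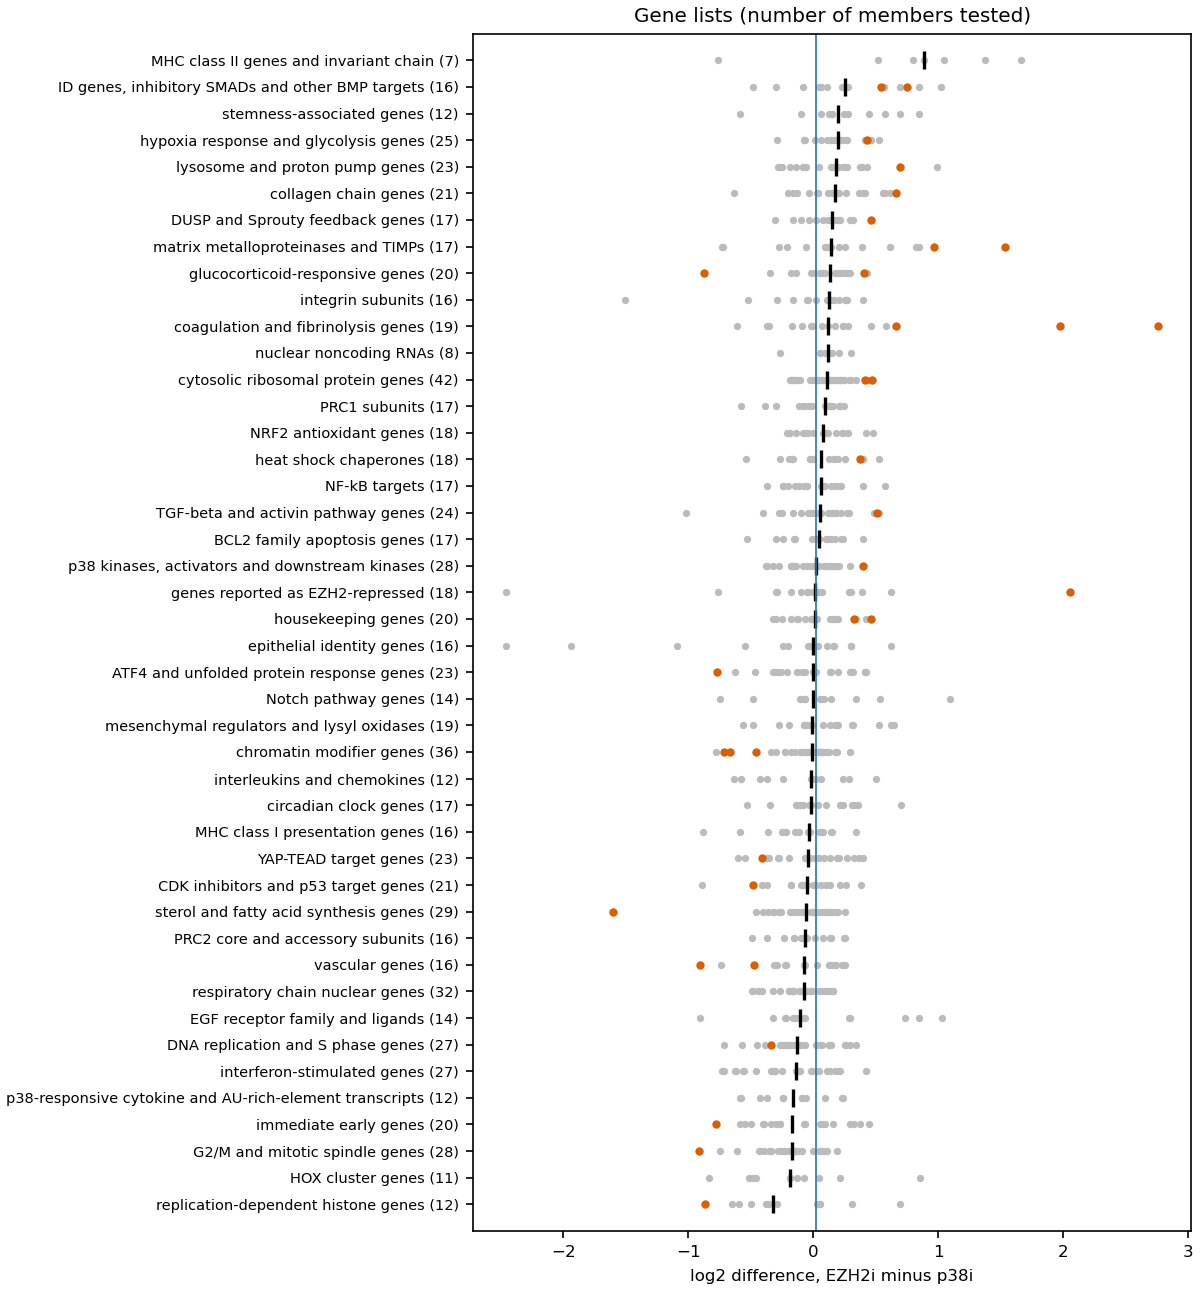
Each row is 1 gene list, with the number of members tested. Points are members on the log2 scale, EZH2i minus p38i, orange points have an unadjusted p under 0.05, black bars are list medians and the blue line is the median of all genes (0.0192). Most medians lie within 0.2 of 0, with MHC class II genes at 0.89.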

How the data were processed

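RNA of 12 tumours was sequenced. Libraries were made from 1.3 µg of total RNA, and the labels name both a SMARTer mRNA kit and QuantSeq. Per the submitters' processing notes, Trim Galore 0.5.0, STAR 2.6.0 and the build hg19 were used. The counting tool, its annotation, its use of strand and any removal of mouse reads are not given in the sources used here. The deposited values are raw counts per gene symbol, and 3 lines without a gene name, all at 0, were dropped.

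All 12 libraries entered 1 edgeR 4.0.16 fit in R 4.3.3 (filterByExpr, TMM scaling, robust quasi-likelihood, two-sided F test, Benjamini-Hochberg adjustment over 12514 genes, threshold 0.05). The biological coefficient of variation was 0.219. CPM are on TMM-scaled totals, and 95% intervals use the fit's degrees of freedom. The code was tested on simulated data. DESeq2 1.42.0, limma-voom 3.58.1, other scalings, filters and left-out libraries were alternatives. Of the named genes, up to 15 a direction had to pass the threshold without overlap, filled up to 10 by smallest p among genes of at least 5 CPM without overlap. Of the 55 lists, 11 held cell type markers. Members with the smallest p on the 44 pathway and technical lists were also named, and some further members are given as values. The comparison, genes and lists were chosen with earlier results of these data known, and the gene list of SRF targets, the promoters and their motifs after the values were seen. The labels do not say how the tumours were handled in batches. Some items are not reported here.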

Additional observations from a re-analysis of the deposited data

How the results depend on the processing

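The number of genes at an adjusted p under 0.05 between EZH2i and p38i was 0 under every alternative but 2: it was 1, SERPINA3, with no filter on low counts and 1, the same gene, with DESeq2. At an unadjusted p under 0.05 the count was 652 with no filter, and from 177 (without p38i col6) to 832 (without EZH2i 6-1) with each library left out, and 749 without EZH2i 5-4. Of the 440 values of the 20 genes named by rule, 438 stayed on their side of the threshold with the same sign, 2 (SERPINA3) passed and 0 reversed. An alternative chosen after seeing the data left out both p38i col6 and EZH2i 5-4, the libraries apart on the first component. It gave 0 calls and 370 genes at an unadjusted p under 0.05, and reversed EZH2 (0.0044), CXCR4 (-0.083), METTL7A (0.044) and IL11 (0.031). With 1 library left out at a time, genes that changed sign ranged as follows, none called. EZH2 ran from -0.33 to 0.038, CXCR4 from -0.069 to 0.14, ADTRP from -0.41 to 0.18, ATOH8 from -0.019 to 1.97, GATA6 from -0.17 to 0.066, METTL7A from -0.32 to 0.10 and SMAD6 from -0.0057 to 0.15. IL11 ran from -0.94 to 0.23, CXCL1 from -0.69 to 0.41 and HLA-DRB1 from -0.052 to 1.90. Of 968 list medians under an alternative, 20 moved by more than 1 SD between libraries. The cause was not tested. No paired analysis was possible because the groups share no tumour number. Totals of 2208771 to 4104159 counts in the 6 libraries limit genes of a few CPM most. The labels do not say that the tumours of a group came from separate mice, so p-values measure only the spread between these tumours.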

Other observations

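SERPINA3 and SERPINA5 are next to each other among the protein-coding genes of chromosome 14 in RefSeq (GRCh38.p14), with SERPINA4 next to SERPINA5. SERPINA4 had at most 1 read in each library. SERPINA1, a further member of the cluster, had 8, 7 and 3 reads in the p38i tumours and 12, 6 and 4 in the EZH2i tumours (log2 0.58, edgeR unadjusted p = 0.42), with 11 to 27 reads in vehicle tumours. DICER1, on the other side of the cluster, had 583, 734 and 835 reads with p38i and 500, 853 and 500 with EZH2i.

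A list of 25 tested SRF and MRTF target genes was put together after the low SRF, TPM4 and FHOD3 values were seen and holds them. It had 4 members at an unadjusted p under 0.05, all lower with EZH2i, against 1.87% of all genes in this direction. The count includes the genes that prompted the list, so it is a description. The member that was not named before is TPM3, a tropomyosin gene, at 248, 264 and 378 CPM with p38i and 216, 166 and 237 CPM with EZH2i (log2 -0.53, edgeR unadjusted p = 0.0146). Its highest value was again that of p38i col6. The list's median was -0.06, and 10 members were higher by sign, where 53.1% of all genes were higher. The actin genes ACTB and ACTG1 were at -0.18 and -0.06, VCL, the vinculin gene, at 0.09, and the transgelin gene TAGLN at -0.26.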
